A study of Homo sapiens with 4 samples.

Results

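Mitoplasts from senescent WI-38 cells were compared with mitoplasts from young WI-38 cells, with 1 library on each side. WI-38 is an established human line of fibroblasts from fetal lung, which divides a limited number of times; the young cells were at population doubling level 21 and the senescent cells at level 60. A mitoplast is a mitochondrion stripped of its outer membrane. Per the labels' protocols, crude mitochondria released with the detergent CHAPS were swollen in hypotonic buffer, digested with RNase A, both before the mitoplasts were pelleted and again afterwards, and their RNA was treated with DNase I and made into TruSeq libraries. The series holds 4 libraries; the other 2 are whole cells of the same 2 levels, which are given beside the mitoplast values. All 4 groups were unmodified cells of this line, and the labels name no treatment. With 1 library a group there is no replicate check, no test was made, and a difference between libraries cannot be told apart from a difference between conditions.

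Values are FPKM, a transcript's fragments per kilobase of its length scaled to the size of the library. Transcripts annotated as protein coding were summed to genes, and genes at 20 FPKM or more in either mitoplast library were kept. That left 2066 of 19023 coding genes, 13 encoded by mitochondrial DNA and 2053 by the nucleus; 1743 reached 20 FPKM in the young library and 908 in the senescent one. Just inside the limit, 45 genes had their higher value between 20 and 20.5 FPKM (median 20.1 in the young and 10.2 in the senescent library), and 57 genes between 19.5 and 20 FPKM lay just outside (medians 19.7 and 2.51).

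Mitochondria make 13 proteins of the respiratory chain from their own DNA, read as long transcripts that are then processed into single mRNAs. All their other proteins are encoded in the nucleus and made on cytosolic ribosomes. mRNAs of secreted and membrane proteins are translated on the endoplasmic reticulum, a membrane network that touches mitochondria at contact sites. Replicative senescence is the lasting arrest that follows many divisions; it is known for loss of cell cycle gene expression and for a secretory state with altered extracellular matrix.

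The nuclear-encoded genes were lower in the senescent mitoplast library as a whole. Their median log2 ratio of senescent to young, with 1 FPKM added to each value, was −2.00, a 4.01-fold lower value, against −0.31 for the same measure in whole cells. Nuclear-encoded coding genes held 1.13% of all FPKM in young mitoplasts and 0.335% in senescent ones. Transcripts assembled from the reads that carry no Ensembl name held 92.7% and 97.3%. In young and senescent whole cells nuclear-encoded coding genes held 14.3% and 7.16%, so FPKM of mitoplasts and whole cells are not on one scale. The depth of the libraries is unknown, since no counts are given, so the precision of a single value cannot be stated. Every ratio below is log2 of senescent over young FPKM with 1 added, minus that median; a positive value means higher relative to the median nuclear-encoded gene, not higher in FPKM.

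The genes divided into those with a value in both libraries and those listed at 0 in one. An FPKM of exactly 0 can be a failed estimate, so the 2 kinds are kept apart. Values above 0 in both libraries, called graded here, were present for 1514 genes. Of these, 542 (35.8%) were higher in the senescent library by a log2 ratio of 1 or more, 256 (16.9%) were lower by as much, and 716 lay between. A further 456 genes (22.1% of 2066) were listed at 0 in the senescent library and 96 (4.65%) in the young one. Higher genes made up 67.9% of the called genes with this centring, 52.2% when centred on graded genes alone and 52.5% when both libraries were scaled to the same nuclear sum. Without centring the share was 18.3%, with 217 higher and 972 lower. The median graded gene stood at 0.44, and 77.9% of graded genes had less FPKM in the senescent library than in the young one. In whole cells, 1379 of the graded genes were above 0 in both libraries, and 13% were higher and 14.1% lower by 1 or more. Across those 1379 genes the mitoplast and whole cell ratios had a Pearson correlation of 0.30, given as a description across genes of 4 single libraries.

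**Figure D1:**
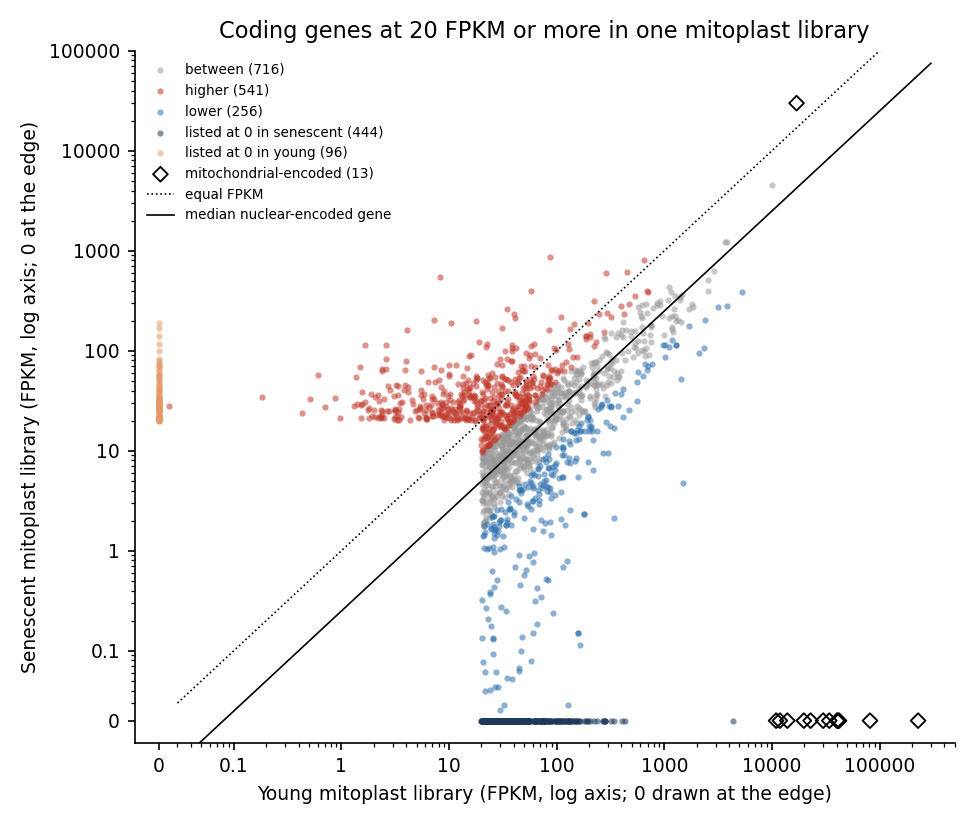
Each point is a coding gene at 20 FPKM or more in one mitoplast library, with young FPKM on the horizontal and senescent FPKM on the vertical log axis; values of 0 are drawn at the edge. Most points lie below the line of equal FPKM, and 12 of the 13 mitochondrial-encoded mRNAs lie at 0 on the senescent axis.

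The mRNAs of mitochondrial DNA were the most abundant coding transcripts of the young mitoplasts and were almost all listed at 0 in the senescent ones. All 13 were between 10945 FPKM (MT-ND2) and 228299 FPKM (MT-ATP8) in the young library. MT-CO1, the catalytic subunit of cytochrome c oxidase, was at 34115 FPKM in the young library and 0 in the senescent one. The single exception was MT-CYB, cytochrome b of complex III, at 16952 and 29903 FPKM. Whole cells showed the same division: 11 of the 13 were listed at 0 in the senescent whole cell library too, none was at 0 in either young library, and MT-CYB was at 4257 and 14663 FPKM. MT-ND1, a complex I subunit, was above 0 in senescent whole cells (13185 FPKM) and at 0 in senescent mitoplasts.

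The senescent mitoplast library also held 1 assembled transcript of 48513 FPKM in the locus that contains MT-CO1. That locus spans 26 annotated genes, and the same transcript was at 0 in the other 3 libraries. The sources used here do not give which genes it covers, so the zeros of the mitochondrial mRNAs cannot be read as loss of their RNA.

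Among the nuclear-encoded genes, 444 were listed at 0 in senescent mitoplasts, with a median of 32.5 FPKM and 48 at 100 FPKM or more in the young library. VIM, the intermediate filament protein vimentin and a fibroblast marker, was the highest: 4312 FPKM against a listed 0, with 3262 and 1144 FPKM in whole cells. No other annotated or assembled transcript of its locus had a value in the senescent mitoplast library. FOXC2, a forkhead transcription factor, was at 282 FPKM in young mitoplasts and 0 in senescent ones. In whole cells FOXC2 was at 4.13 and 1.80 FPKM. IFITM3, an interferon-induced antiviral membrane protein, was at 238 FPKM and 0, but an assembled transcript of 80.3 FPKM lay in its locus. RPL11 and RPL6, proteins of the large ribosomal subunit, were at 197 and 161 FPKM and then 0, with assembled transcripts of 180 and 89.2 FPKM in their loci. PSMD2, a proteasome subunit, was at 223 FPKM and 0, with 39.9 FPKM assembled in its locus, and APEX1, a DNA repair endonuclease, was at 179 FPKM and 0 with none. NME2, a nucleoside diphosphate kinase, went from 271 FPKM to a listed 0.

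Of those 444 genes, 21.2% had an assembled transcript with FPKM in the same locus in the senescent library, against 7.66% of graded genes. Another annotated transcript type was above 0 in 187 of them, and 188 had neither. In senescent whole cells 189 of the 444 were at 20 FPKM or more and 61 were also listed at 0.

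The reverse drop-out concerned 96 genes, with a median of 28.7 FPKM in the senescent library. Of these, 47.9% had an assembled transcript in their locus in the young library, against 17% of graded genes, and 71.9% were led by a transcript under 600 nt. TUBA1A, an alpha-tubulin, was at 116 FPKM in senescent mitoplasts and 0 in young ones, where assembled transcripts of its locus held 586 FPKM. DKK3, a secreted glycoprotein related to Wnt antagonists, was at 50.9 FPKM against 0 with 34.4 FPKM assembled in the young locus. EFEMP2 (fibulin-4, an elastic fibre protein), PDCD4 (a translation inhibitor), EED (a Polycomb subunit), DHRS7 (a dehydrogenase) and CD151 (a tetraspanin) were at 45.3, 41.9, 38.6, 34.5 and 31.9 FPKM. Each of those 5 was at 0 in the young library with no assembled transcript in its locus.

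Genes of 4 secretory lists and of the cell surface were more often higher than the other graded genes in these 2 libraries. Collagens, other matrix proteins, endoplasmic reticulum proteins and lysosomal proteins together numbered 58 graded genes, of which 41 (70.7%) were higher and 6 (10.3%) lower; among the 1456 other graded genes, 34.4% were higher and 17.2% lower. Their median ratio was 1.52, against 0.38 for the others. Of the 2066 genes 323 were kept through the senescent value alone, 11 of the 58 among them. Such genes lean to high ratios, so the counts were also taken with limits not set on the senescent value. At 20 FPKM or more in young mitoplasts, 35 of 47 were higher, against 36.0% of 1240 others; with the limit set on young whole cells instead, 50 of 77 were higher, against 35.8% of 1597 others. Both limits were chosen after the values were seen, and graded genes still needed a senescent value above 0. Young mitoplast FPKM are also part of the ratio. The centre was −2.46 with the limit on young mitoplasts and −1.91 with that on young whole cells, in place of −2.00. The same 4 lists were also above the others in whole cells, by less: their median there was 0.51 over 54 genes and −0.04 over the other 1325. In FPKM, 23 of the 58 were higher in senescent mitoplasts. Listed at 0 in the senescent library were 7 of the 65 genes of these lists (10.8%), against 22.4% of the other genes. These lists were chosen with earlier results of these data known, and the contrast is a description of 2 libraries.

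Matrix glycoproteins and the enzymes that modify them had the highest median of the 4, at 1.69 over 20 graded genes; 15 were higher, 2 were lower, and without centring the median was −0.32. SPARC, a collagen-binding glycoprotein, was at 58.2 FPKM in young mitoplasts and 394 FPKM in senescent ones, a ratio of 4.74, while whole cells held 99.2 and 110 FPKM. Its leading transcript is 511 nt, and with all annotated transcripts of the gene the SPARC ratio was 3.41. THBS1, which encodes thrombospondin-1, was at 40.0 and 233 FPKM (ratio 4.51), and at 245 and 1166 FPKM in whole cells. SERPINE2, a secreted protease inhibitor, was at 10.0 and 58.0 FPKM, and PLOD2, a lysyl hydroxylase of collagen, at 14.7 and 67.1 FPKM. Both were also higher in senescent whole cells, with ratios of 3.25 and 2.89. LAMC1, the laminin gamma-1 chain, was at 16 and 91.5 FPKM in mitoplasts and at 65.6 and 0 FPKM in whole cells. CCN2, a matricellular growth factor, stood at 2.59, LOX, the lysyl oxidase that cross-links collagen, at 2.16 and DCN, the proteoglycan decorin, at 1.69. DCN was led by a 356-nt transcript.

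The 2 lower genes were lower in both fractions. FBLN1, the matrix protein fibulin-1, was at 45.4 and 4.08 FPKM in mitoplasts and 156 and 4.0 FPKM in whole cells. POSTN, periostin, was at 33.8 and 1.81 FPKM, with 92.0 and 2.32 FPKM in whole cells. MMP2, a gelatinase, PCOLCE, an enhancer of procollagen processing, and LAMB2, a laminin chain, were listed at 0 in senescent mitoplasts after 61.9, 39.9 and 24.4 FPKM in young ones.

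The collagens divided by type. Of 10 graded genes 6 were higher, 3 were lower and the median was 1.38, which became −0.63 without centring and −0.96 when only genes at 50 FPKM or more were kept. In whole cells the median of the same 10 genes was −0.28, with 1 higher and 3 lower. COL1A1 and COL1A2, the chains of type I collagen, were at 424 and 187 FPKM in young mitoplasts and 234 and 142 FPKM in senescent ones. Their ratios were 1.15 and 1.61, and with all annotated transcripts added COL1A2 stood at 0.94. Under that setting the median nuclear-encoded gene was at −1.33 in place of −2.00. Ratios and medians with all annotated transcripts are relative to that higher centre, which alone moved COL1A2. COL8A1, of the short-chain type VIII, was at 8.32 and 22.9 FPKM, and COL4A1, a basement membrane chain, at 19.2 and 23.0 FPKM. The 3 chains of type VI collagen, which forms beaded microfibrils, were the lower ones: COL6A1 went from 144 to 14.9 FPKM, COL6A2 from 182 to 15.9 and COL6A3 from 75.9 to 4.95. Their mitoplast ratios were −1.18, −1.44 and −1.69, and their whole cell ratios −3.17, −3.96 and −3.19. COL12A1, a fibril-associated collagen, was listed at 0 in senescent mitoplasts after 20.6 FPKM in young ones.

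Endoplasmic reticulum proteins were higher in 12 of 17 graded genes and lower in none by 1 or more; none was listed at 0. Their median was 1.22 (−0.78 without centring), and 0.73 in whole cells. The lectin chaperones that fold glycoproteins led the list: CALR was at 30.8 and 170 FPKM and CANX at 22.4 and 117 FPKM, ratios of 4.43 and 4.34. With all annotated transcripts their ratios were 2.42 and 2.28, a fall larger than that of the moved centre. In whole cells CANX was at 35.8 and 46.2 FPKM, and CALR was listed at 0 in the young library. STT3A, the catalytic subunit of an oligosaccharyltransferase, was at 15.5 and 42.5 FPKM. CANX and STT3A were led by transcripts of 592 and 542 nt. HSP90B1, the chaperone GRP94, was at 56.5 and 89.9 FPKM, and HSPA5, the chaperone BiP, at 51.1 and 28.4 FPKM. The HSPA5 ratio of 1.18 was 0.51 with all annotated transcripts, through the moved centre alone. OST4 (574 and 126 FPKM), PDIA4 (20.5 and 3.13 FPKM) and KDELR2 (49.1 and 8.40 FPKM) had ratios between −0.41 and −0.18.

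Lysosomal genes were higher in 8 of 11 and lower in 1, with a median of 1.43 (−0.57 without centring) and 0.69 in whole cells. CD63, a tetraspanin of late endosomes, was at 222 and 314 FPKM. PSAP, the precursor of the saposins, was at 23.8 and 33.7 FPKM, CTSC, cathepsin C, at 28.7 and 39.5 FPKM and ATP6V0C, the proteolipid of the proton pump, at 93.8 and 107 FPKM. CTSC was led by a 401-nt transcript, and 4 of the 11 graded genes were led by one under 600 nt. CTSD, the aspartic protease cathepsin D, was at 83.3 and 53.6 FPKM. Its ratio of 1.38 was 0.71 with all annotated transcripts, through the moved centre alone. CTSB, cathepsin B, and ATP6V0D1, another pump subunit, were listed at 0 in senescent mitoplasts after 36.4 and 32.6 FPKM. IDS, a sulfatase led by a 572-nt transcript, was the lower one, at 36.7 and 2.61 FPKM, but had a ratio of 0.36 with all annotated transcripts.

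Receptors and adhesion molecules, a list added after the values were seen, had a median of 2.31 (0.31 without centring): 17 of 25 graded genes were higher and 1 was lower. ALCAM, an adhesion molecule, was at 1.79 and 27.0 FPKM, PRNP, the prion protein, at 13.4 and 56.5 FPKM and ANTXR1, a collagen-binding receptor, at 14.3 and 47.6 FPKM. CD81, a tetraspanin, was at 34.9 and 83.5 FPKM, and ITGB1, the beta-1 integrin chain, at 133 and 167 FPKM. CD44, the hyaluronan receptor, was at 653 and 810 FPKM, led by a 548-nt transcript. Whole cell values of the list had a median of 0.62. FZD2, a Wnt receptor, went the other way, from 342 to 2.11 FPKM, a ratio of −4.78, the lowest among genes above 1 FPKM in both libraries and led by a transcript of 600 nt or longer; in whole cells it was at 22.6 and 12.6 FPKM. CAV1, the caveolar coat protein caveolin-1, was at 302 and 48.9 FPKM (−0.60), and CAV2, its partner, was listed at 0 after 47.7 FPKM. The 21 graded genes of Golgi and vesicle transport, also added, had a median of 0.55 (−1.46 without centring and 0.075 with all annotated transcripts). Of these, 9 were higher and 3 lower, and 7 of the 28 members were listed at 0 in senescent mitoplasts. These counts were near the shares over all genes: 35.8% of graded genes higher, 16.9% lower and 22.1% of members at 0.

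Among secreted factors known from senescent cells, 5 of 12 graded genes were higher, near the 35.8% of all graded genes. None was lower by 1 or more, against 16.9% of all graded genes. The median was 0.89 (−1.11 without centring and 0.24 with all annotated transcripts). IGFBP7, an insulin-like growth factor binding protein, was at 34.2 and 263 FPKM, and at 53.1 and 652 FPKM in whole cells. IGFBP3, of the same family, was at 5.84 and 23.8 FPKM. PLAUR, the urokinase receptor, was at 19.8 and 32.5 FPKM, while its ligand PLAU was listed at 0 after 31.8 FPKM. MIF, a cytokine, was listed at 0 after 146 FPKM. IGFBP5 was at 263 and 89.0 FPKM, a ratio of 0.45.

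**Figure D2:**
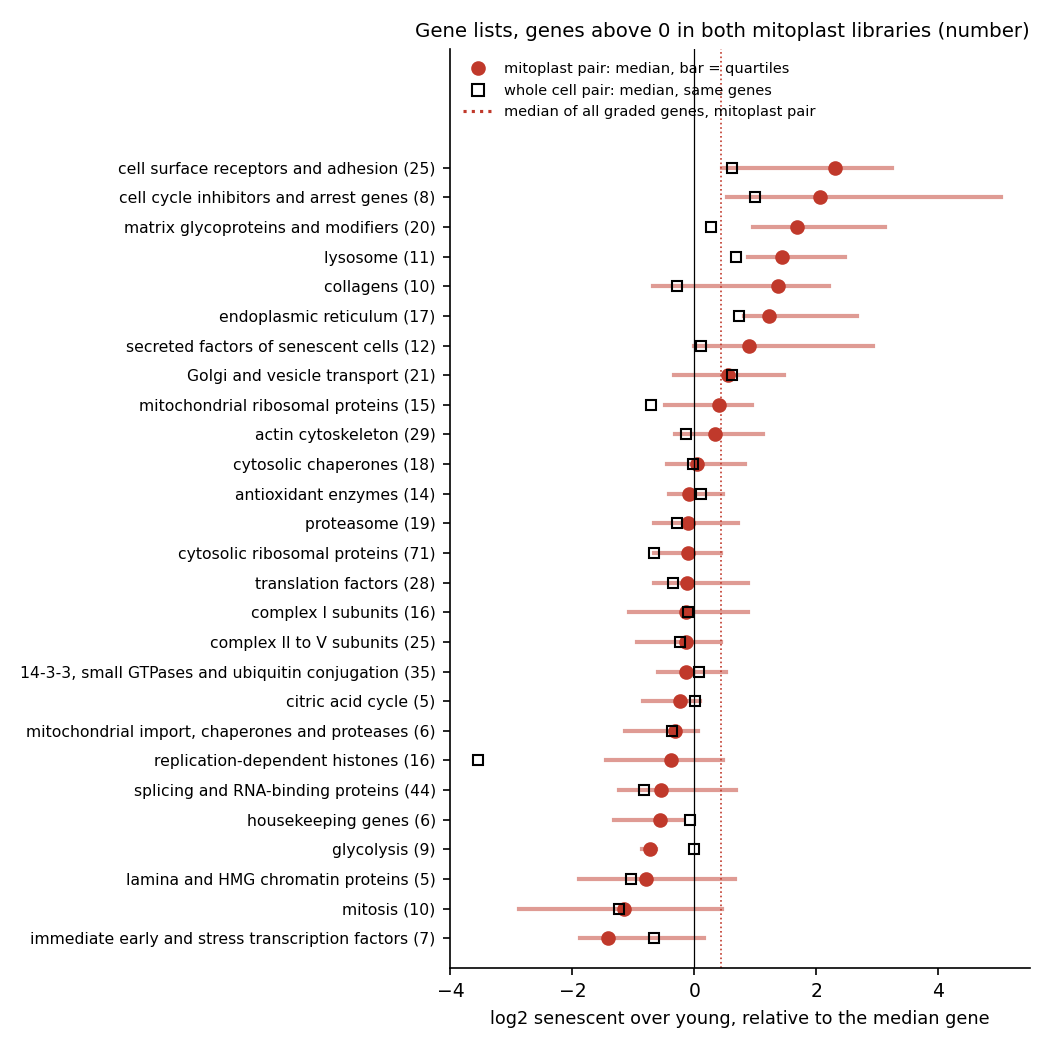
Median log2 ratio of each gene list in the mitoplast pair (filled points, bars spanning the quartiles) and of those of the same genes above 0 in both libraries of the whole cell pair (open squares); the number of graded genes follows each name. Cell surface, matrix, lysosomal, collagen and endoplasmic reticulum lists lie above 1, and ribosomal, respiratory chain and proteasome lists lie near 0.

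The coding sequence of these genes was examined for a feature that the choice of genes did not use. Proteins sent to the endoplasmic reticulum usually begin with a run of hydrophobic residues, the signal peptide or signal anchor, and codons with T in the middle position all encode the hydrophobic residues phenylalanine, leucine, isoleucine, methionine or valine. For each gene the highest number of such codons in any 12 codons in a row was counted between codons 2 and 31 of its longest coding sequence in GENCODE release 29. The count was 8 or more in 12.6% of 19564 coding genes. By list it was reached in 40.0% of collagens, 38.9% of matrix genes, 42.6% of endoplasmic reticulum genes and 26% of lysosomal genes, against 1.27% of cytosolic ribosomal protein genes.

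The first 60 coding bases of 5 genes that were higher in senescent mitoplasts, and of 3 that were lower, are printed as examples of the measure. They were chosen after the values were seen, so the contrast between them is no result. Of the graded nuclear-encoded genes with 8 or more such codons, 12 of 93 were lower. Of those under 8, 489 of 1416 were higher. They are GENCODE release 29 transcript sequences of build GRCh38, 5′ to 3′ on the coding strand, with codons after the start that have T in the middle in capitals. SPARC and CANX lie on chromosome 5, CALR and CDC37 on 19, CD63 and PA2G4 on 12, IGFBP7 on 4 and EEF1A1 on 6. The 5 higher genes come first.
SPARC: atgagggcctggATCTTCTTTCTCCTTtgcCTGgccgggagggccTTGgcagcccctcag
CALR: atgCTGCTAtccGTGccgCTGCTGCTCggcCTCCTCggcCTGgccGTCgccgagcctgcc
IGFBP7: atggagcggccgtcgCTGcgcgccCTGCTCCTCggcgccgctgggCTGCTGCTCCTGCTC
CD63: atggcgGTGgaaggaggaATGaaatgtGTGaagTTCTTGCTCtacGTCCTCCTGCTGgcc
CANX: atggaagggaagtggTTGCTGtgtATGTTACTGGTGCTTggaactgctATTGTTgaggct
EEF1A1: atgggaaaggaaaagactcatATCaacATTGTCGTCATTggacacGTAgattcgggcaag
CDC37: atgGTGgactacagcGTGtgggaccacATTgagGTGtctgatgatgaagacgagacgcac
PA2G4: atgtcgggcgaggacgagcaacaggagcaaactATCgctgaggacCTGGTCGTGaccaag
The 5 higher genes carry between 7 (SPARC) and 9 (CD63) such codons in their best stretch of 12. The 3 lower ones carry between 4 (CDC37) and 6 (EEF1A1). With 7, SPARC is itself counted among the genes under 8. EEF1A1 shows that a short hydrophobic run also occurs in a cytosolic protein.

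Genes that begin with such a run had a higher median ratio in these 2 libraries where long transcripts led them. With 8 or more of these codons, 93 graded nuclear-encoded genes had a median of 1.18, and 54.8% were higher and 12.9% lower; the 1416 genes under 8 had a median of 0.38, with 34.5% higher and 17.2% lower. The senescent value alone had kept 20 of the 93. With the limit on young mitoplasts alone the medians were 1.32 and 0.56, relative to a centre of −2.46. With the limit on young whole cells they were 1.10 and 0.41, relative to a centre of −1.91. In whole cells the medians of the 2 groups were 0.38 and −0.05. Among genes led by a transcript of 600 nt or longer, the share that was higher was 24.9% at 0 to 3 such codons, 23.1% at 4 or 5, 31.7% at 6, 46.6% at 7 and 56.5% at 8 or more. Among genes led by a shorter transcript the share did not follow the count, at 49.4% for 0 to 3 and 51.6% for 8 or more, and the medians were 1.13 for 8 or more and 0.91 under 8. Outside the 4 secretory lists, the 66 genes with 8 or more had a median of 1.06 and the 1385 under 8 had 0.36. The codon measure was added and its limit of 8 set after the values were seen; with 7 or 9 in its place the medians were 1.14 against 0.35 and 1.30 against 0.42.

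**Figure D3:**
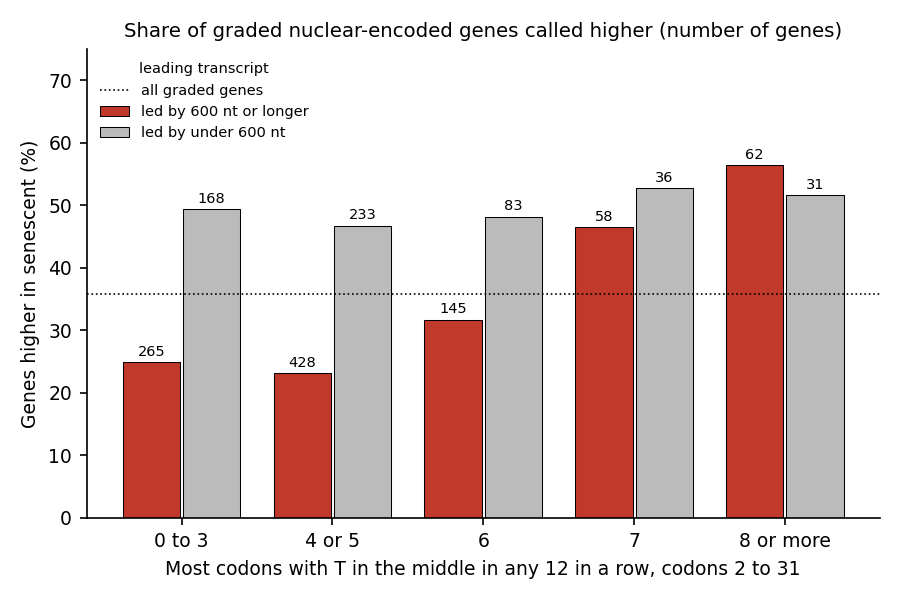
Share of graded nuclear-encoded genes that were higher in senescent mitoplasts (vertical axis, percent), by the highest number of codons with T in the middle in 12 codons in a row near the start of the coding sequence, with the number of genes above each bar. In genes led by a transcript of 600 nt or longer the share goes from 24.9% at 0 to 3 codons to 56.5% at 8 or more, and in genes led by shorter transcripts it stays between 46.8% and 52.8%.

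Transcript length also moved with the ratio. Genes led by a transcript under 400 nt had a median of 1.61 and 55.7% were higher, those from 400 to 600 nt 0.83 and 46.1%, and those from 600 to 1000 nt 0.32 and 29.1%. From 1000 to 2500 nt the values were 0.17 and 23.7%, and from 2500 nt on 0.38 and 35.1%. Of the 541 higher nuclear-encoded genes 49.5% were led by a transcript under 600 nt, against 37.1% of the 256 lower ones and 26.7% of those between. Median GC content of the leading transcript differed little, at 50.4% in higher, 53.2% in lower and 52.2% in the genes between. Genes with 1 exon made up 1.29% of higher and 3.91% of lower genes. FPKM of short transcripts depend strongly on the fragment length assumed by the software; the part of length in the ratios was not tested.

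The machinery of cytosolic translation lay close to the median gene when centred on it, and below the 0.44 of all graded genes. Cytosolic ribosomal proteins numbered 71 graded genes, with 5 higher, 12 lower and a median of −0.10; in whole cells their median was −0.67, with 20 of 70 lower. RPL28 was at 2890 and 624 FPKM, a ratio of −0.21. At the extremes, RPLP2, of the ribosomal stalk, was at 302 and 9.40 FPKM (−2.86, and −0.93 with all annotated transcripts), and RPL35A was at 188 and 131 FPKM (1.48, and −0.047 with all annotated transcripts). RPS3, of the small subunit, was listed at 0 in the young library and at 167 FPKM in the senescent one. Translation factors had a median of −0.12 with 7 higher and 3 lower of 28. Among the lower ones were the elongation factors EEF1A1, at 1422 and 51.7 FPKM (−2.75), and EEF2, at 3837 and 283 FPKM (−1.75). In whole cells EEF1A1 was at 607 and 388 FPKM. Ribosomal proteins, EEF1A1 and actins have many near-identical pseudogene copies, so reads could have been divided among them.

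Proteasome genes, glycolytic enzymes and the actin list all had medians below the 0.44 of all graded genes. Proteasome genes had a median of −0.10 over 19 graded genes, with 4 higher and 2 lower. Glycolytic enzymes had a median of −0.72 over 9 genes, of which none was higher and 1 was lower: ENO1, enolase, was at 309 and 28.1 FPKM, and GAPDH, the glyceraldehyde-3-phosphate dehydrogenase, at 1818 and 292 FPKM. In whole cells the same genes had a median of −0.01. The actin cytoskeleton list had a median of 0.34 (−1.67 without centring and −0.31 with all annotated transcripts) with 9 higher and 4 lower of 29, but its abundant members were lower: ACTG1 was at 5308 and 384 FPKM and ACTB at 3176 and 272 FPKM. ACTB was led by a 568-nt transcript and had the opposite sign when transcripts of 600 nt or longer were taken alone. LGALS1, galectin-1, was at 2366 and 205 FPKM, a ratio of −1.52, and −1.15 in whole cells.

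RNA-binding and splicing proteins, another list added after the values were seen, had a median of −0.54; 16 of 44 graded genes were lower and 5 were higher, and 10 of 56 members were listed at 0 in senescent mitoplasts. HNRNPU, a nuclear matrix RNA-binding protein, was at 80.6 and 3.94 FPKM, a ratio of −2.04 that was −0.011 with all annotated transcripts. SRSF3, a splicing factor, was at 52.5 and 2.93 FPKM. The list was also low in whole cells, with a median of −0.82 and 18 of 42 lower.

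**Figure D4:**
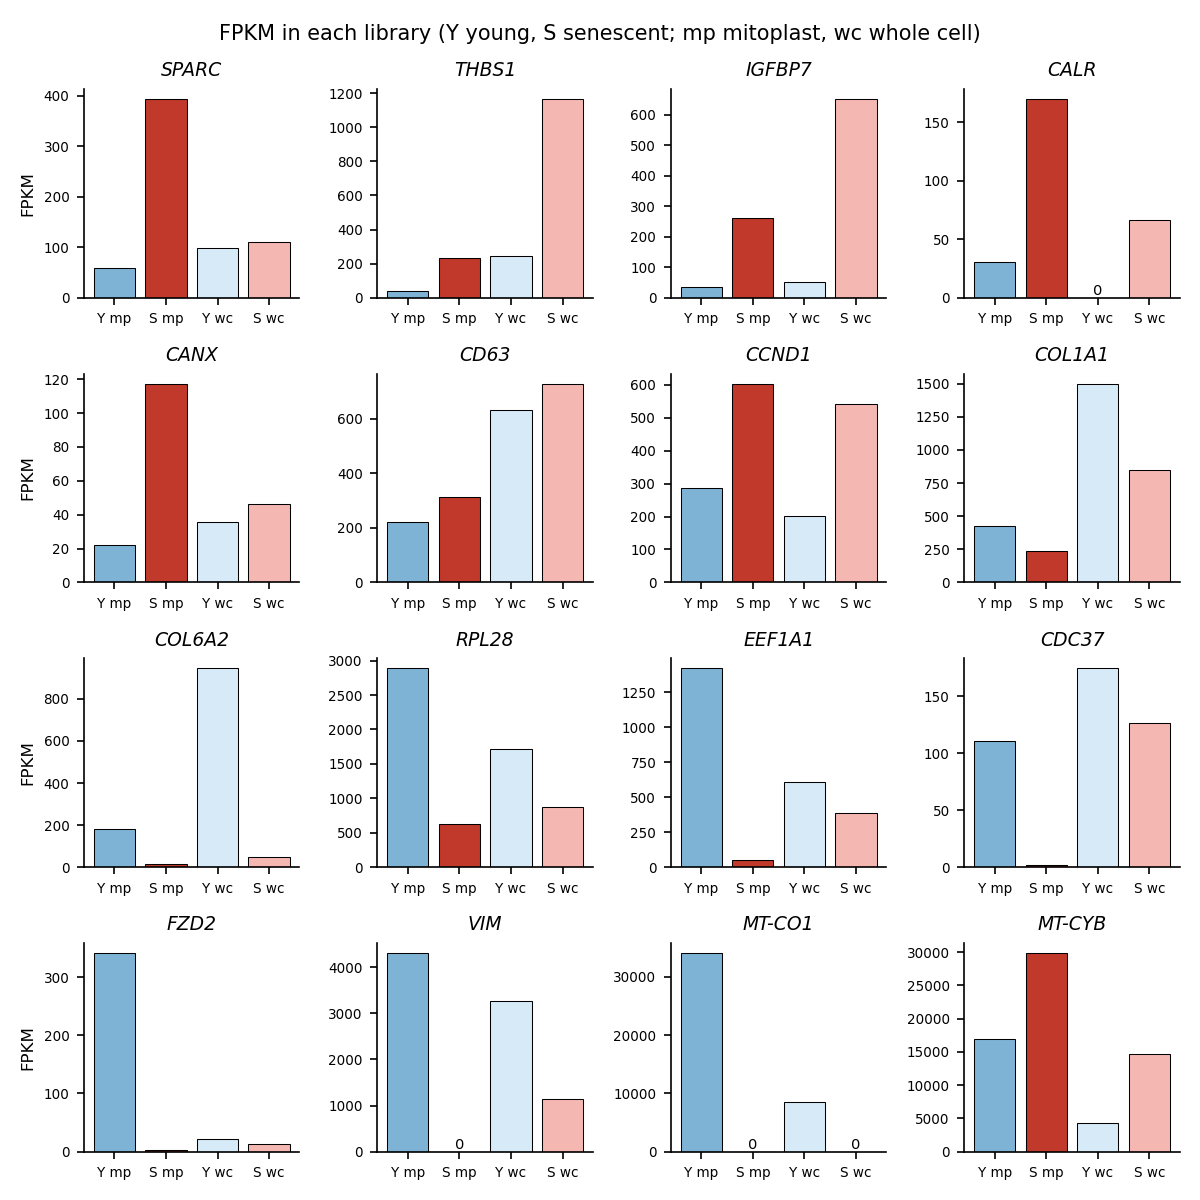
FPKM of 16 genes in each of the 4 libraries, 1 bar a library on a linear axis from 0; a printed 0 marks a gene listed at 0. SPARC, CALR and CANX are highest in the senescent mitoplast bar, and EEF1A1 and FZD2 in the young mitoplast bar. MT-CO1 is at 0 in both senescent libraries. FPKM of mitoplasts and whole cells are not on one scale, so the bars do not measure enrichment in a fraction.

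Lists of nuclear-encoded mitochondrial proteins had medians at or below the 0.44 of all graded genes. With all annotated transcripts the medians of complex I and of complexes II to V, given next, were −1.17 and −1.07. Complex I subunits had a median of −0.13 over 16 graded genes, with 4 higher and 4 lower, and 8 of 25 members were listed at 0 in senescent mitoplasts. NDUFB3 was at 98.6 and 102 FPKM and NDUFA3 at 469 and 25.8 FPKM; both were led by transcripts under 600 nt. NDUFA12 was at 320 FPKM and 0. Subunits of complexes II to V had a median of −0.13 over 25 genes, with 2 higher and 6 lower and 6 of 31 at 0. ATP5F1B, the catalytic beta subunit of ATP synthase, was at 38.8 and 106 FPKM, led by a 399-nt transcript; with transcripts of 600 nt or longer alone its ratio was −2.93, and that of NDUFB3 −3.71. CYCS, cytochrome c, was at 61.5 and 0.957 FPKM. COX4I1, a cytochrome oxidase subunit, was at 109 and 37.7 FPKM. Of 28 mitochondrial ribosomal proteins 12 were listed at 0 in the senescent library, and the 15 graded ones had a median of 0.41 with 4 higher and 4 lower. Import factors, chaperones and proteases had 8 of 15 at 0; TOMM7, a small subunit of the outer membrane import pore, was at 152 FPKM and 0. Carriers of the inner membrane had 4 graded members, with SLC25A3, the phosphate carrier, at 203 and 35.5 FPKM and SLC25A6, an ADP/ATP carrier, at 201 and 15.8 FPKM.

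Genes of cell division were low or listed at 0 in the senescent mitoplast library. Of 15 mitosis genes 5 were listed at 0, and the 10 graded ones had a median of −1.15 with 6 lower and 1 higher (−1.23 in whole cells). The mitoplast median was −0.30 with all annotated transcripts and −0.63 with a limit of 5 FPKM. PLK1, a mitotic kinase, was at 60.7 and 0.152 FPKM, PRC1, of the central spindle, at 38.7 and 0.0527 FPKM and CDC20, an activator of the anaphase-promoting complex, at 32.1 and 0.0290 FPKM. TUBA1B and TUBB, alpha- and beta-tubulin, were at 656 and 74.2 FPKM and at 192 and 20.2 FPKM. BUB3, a spindle checkpoint protein, was the higher one, at 71.0 and 48.7 FPKM. Its ratio of 1.47 was 0.80 with all annotated transcripts, through the moved centre alone.

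Histone genes expressed during DNA synthesis had medians that differed between the fractions, each relative to the median gene of its pair and over different genes. In whole cells the 12 that were above 0 in both whole cell libraries had a median of −3.55 and 8 were lower; in mitoplasts the 16 graded ones had a median of −0.38, with 3 higher and 7 lower, and 11 of 27 were listed at 0. H1-4, a linker histone, was at 88.2 and 46.6 FPKM in mitoplasts and at 143 and 2.52 FPKM in whole cells. Its mitoplast ratio of 1.10 was 0.43 with all annotated transcripts, through the moved centre alone. H2AC17 was at 162 and 42.8 FPKM in mitoplasts and at 174 and 1.82 FPKM in whole cells. Other histone genes were low in both fractions. H2BC11, H2BC13 and H2AC8 had ratios of −3.73, −3.59 and −2.05 in mitoplasts and −4.95, −4.82 and −4.08 in whole cells. H4C2 and H2BC10 were listed at 0 in senescent mitoplasts after 121 and 131 FPKM. Histone genes of one class are nearly identical, so the division of reads among them is uncertain.

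Chromatin proteins of the lamina and high mobility group were at 0 in the senescent library for 7 of 13 members, among them HMGN2 (120 FPKM in the young library) and CBX3 (92.8 FPKM). HMGA1, an architectural chromatin protein, was at 559 and 31.2 FPKM, a ratio of −2.12. HMGA2, its relative, was at 78.8 and 4.39 FPKM in mitoplasts but at 25.9 and 125 FPKM in whole cells. Immediate early and stress transcription factors had a median of −1.42 over 7 genes with 4 lower, among them EGR1 (26 and 1.52 FPKM) and ZFP36L2 (40.7 and 0.690 FPKM); with a limit of 5 FPKM the median was 0.50.

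Cyclins D1 and D2, of the first gap phase, were higher. CCND1, cyclin D1, was at 287 and 604 FPKM in mitoplasts and 202 and 541 FPKM in whole cells, ratios of 3.07 and 1.72. CCND2, cyclin D2, was at 3.18 and 25.6 FPKM, a ratio of 4.67. CDKN2A, the p16 and ARF locus of senescence, was at 65.5 and 33.5 FPKM, a ratio of 1.05. With all annotated transcripts it was 0.39, through the moved centre alone. CDKN1A, the p21 cyclin-dependent kinase inhibitor, was at 94.8 and 35.9 FPKM (0.62). This list of arrest genes had 8 graded members, 5 of them higher and 1 lower, and its median was 2.06. That median was 0.17 with all annotated transcripts, 1.06 with a limit of 5 FPKM, 0.53 for genes at 20 FPKM in young whole cells and 0.061 without centring. Very short transcripts led some of them: RRM2B, a ribonucleotide reductase subunit led by 201 nt, was at 7.20 and 203 FPKM, and MDM2, a ubiquitin ligase led by 213 nt, was at 1507 and 4.79 FPKM.

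Outside the lists, the highest ratios among genes above 1 FPKM in both libraries and led by a transcript of 600 nt or longer were those of ARRDC4, an arrestin-domain protein, at 2.62 and 65.0 FPKM (6.19), CRIM1, a membrane-bound BMP antagonist, at 3.92 and 63.7 FPKM (5.72), and ITGBL1, an integrin-like secreted protein, at 1.66 and 30.8 FPKM (5.59). KDM2B, a histone demethylase, RIOX2, a ribosomal oxygenase, TMEM263, a small membrane protein, and ZEB2, a repressor of epithelial genes, stood at 5.53, 5.53, 4.80 and 4.77. PPP1R3C, which directs protein phosphatase 1 to glycogen, was at 7.42 and 48.7 FPKM. CCDC85B, a repressor of beta-catenin signalling, was at 87.5 and 873 FPKM in mitoplasts and at 114 and 13.4 FPKM in whole cells, so its ratios had opposite signs (5.31 and −2.68). ITGBL1 was higher in whole cells as well (15.8 and 304 FPKM).

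Under the same limits, the lowest ratios after FZD2 were those of PA2G4, a growth regulator that binds ribosomes, at 120 and 1.80 FPKM (−3.43), and CDC37, the kinase co-chaperone of HSP90, at 110 and 2.06 FPKM (−3.18). In whole cells CDC37 was at 175 and 127 FPKM. SEC24D, a coat protein of vesicles leaving the endoplasmic reticulum, was at 87.3 and 1.93 FPKM, AP2M1, of the clathrin adaptor, at 217 and 6.38 FPKM and DYNLT1, a dynein light chain, at 74.4 and 1.59 FPKM. CALM3, a calmodulin gene, was at 159 and 5.46 FPKM, and SOD1, the copper-zinc superoxide dismutase, at 109 and 3.90 FPKM. NREP, IRAK1 (an interleukin-1 receptor kinase), MTPN (myotrophin) and SEPTIN9 had ratios of −2.54, −2.41, −2.17 and −2.17. For NREP, SEPTIN9, SOD1 and AP2M1 the call rested on the coding transcripts alone: with all annotated transcripts the ratios were −0.006, 0.81, −0.20 and −0.15. For CDC37, SOD1 and AP2M1 other annotated transcripts held part of the senescent FPKM: with those added, senescent mitoplasts held 20.8, 51.2 and 76.8 FPKM.

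The most abundant nuclear-encoded genes of the senescent library were HFM1 (4533 FPKM, against 9993 in the young library), FTL, the ferritin light chain (1234 against 3647), and SEPTIN11 (1216 against 3790). HFM1, a helicase of meiosis, was led by a 540-nt transcript and SEPTIN11 by one of 276 nt. XYLT2, a xylosyltransferase led by a 145-nt transcript, was at 8.29 and 552 FPKM.

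Markers checked the label of the cells. Of 17 fibroblast markers 13 were at 20 FPKM or more in young and 8 in senescent mitoplasts, with a summed FPKM of 8964 and 1480. None of 14 epithelial, 10 endothelial or 14 blood markers reached 20 FPKM in either library; the highest was KRT18, a keratin, at 12.6 and 19.7 FPKM. Of 10 neuronal markers 1 reached 20 FPKM in each library, with a summed FPKM of 352 and 72.0: TUBB3, a beta-tubulin, at 341 FPKM and 0, and RBFOX3, the nuclear antigen NeuN led by a 260-nt transcript, at 7.25 and 69.1 FPKM. Of 10 striated muscle markers TTN, titin, reached it in the senescent library alone, at 0.025 and 27.8 FPKM, and the list summed to 3.75 and 29.6 FPKM. Of these lists 3 neuronal and 6 muscle markers were at 0 in young mitoplasts, and 7 and 8 in senescent ones; their part in the results was not tested.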

How the data were processed

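The 4 deposited files list FPKM for 393483 transcripts of one merged set, per the file headers. Tools named by the submitters' processing notes are Cufflinks 2.2.1, TopHat2 2.0.14 and Cuffdiff, with build hg19. The sources used here give no annotation release, strand setting, normalization or depth, so reads of overlapping antisense genes cannot be told apart. Names, transcript types, lengths and coding sequences came from GENCODE release 29, which holds 93.0% of the 185591 Ensembl identifiers; no coordinates were used. Protein-coding transcripts were summed to genes with pandas 2.3.3, kept at 20 FPKM in one library, and compared as log2 ratios with a pseudocount of 1 FPKM, centred on the median nuclear-encoded gene; this understates the change of low genes. A gene was led by the coding transcript with the most FPKM in its higher library. The whole cell pair was centred by the same rule on its own genes. The scripts were tested on simulated data. Members, lists and alternatives were chosen with earlier results of these data known; 5 lists and the codon measure were added after values were seen. Named genes are the 15 highest and 15 lowest ratios above 1 FPKM in both libraries and led by transcripts of 600 nt or longer, the 12 most abundant listed at 0 in each library, the 10 most abundant, and up to 4 a list by ratio and by abundance, without clone names; some that the rule takes are not named, and others were chosen after their values were seen.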

Additional observations from a re-analysis of the deposited data

Results flagged for a closer look

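The collagens had medians of opposite sign in the 2 fractions: 1.38 in the mitoplast pair and −0.28 in the whole cell pair, over 10 genes, each relative to the median gene of its pair. Those centres were −2.00 and −0.31, and the opposite sign depends on them. Without centring the mitoplast median was −0.63, and the whole cell median was below 0 as well. With a limit of 50 FPKM the centred mitoplast median was −0.96. The difference was not tested, since each pair is 1 library against 1.

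A signal appeared outside the annotated coding genes: an assembled transcript of 48513 FPKM in the mitochondrial locus of the senescent mitoplast library, at 0 in the other 3 libraries.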

How the results depend on the processing

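No paired analysis was possible because each group held 1 library. For the 3 counts of genes, 5 list medians (collagens, matrix, endoplasmic reticulum, lysosome, cytosolic ribosomal proteins) and the codon measure, 81 recomputed values stayed within 1.5 times of the main value, 26 moved further and 5 had the opposite sign. A list median was counted as of opposite sign only where its main value was 1 or more in size. The ribosomal median of −0.10 was below that size. It was 0.12 at 50 FPKM and 0.29 with transcripts of 600 nt or longer alone. By limit, 5 FPKM gave 1483 higher genes, 2182 listed at 0 in one library and an endoplasmic reticulum median of 1.88. A limit of 50 FPKM gave 210 higher, 136 lower, 153 at 0 and a collagen median of −0.96. No limit gave 1679 higher, 853 lower, 6394 at 0, a matrix median of 0.80 and a ribosomal median of −0.98. The centre was −1.96 at 5 FPKM, −2.22 at 50 FPKM and −1.12 without a limit. Over these limits the ribosomal median moved through the centre alone. Without centring, 217 genes were higher and 972 lower; the medians were −0.63 for collagens, −0.32 for matrix, −0.78 for endoplasmic reticulum, −0.57 for lysosome and −2.10 for ribosomal proteins, and 9 named genes changed sign: COL1A2 −0.40, COL1A1 −0.86, DCN −0.31, HSPA5 −0.83, CTSD −0.63, CDKN2A −0.95, BUB3 −0.53, H1-4 −0.91 and RPL35A −0.52. Centring on genes above 0 in both libraries gave 386 lower, and scaling to an equal nuclear sum gave 391 lower (a shift of −1.64 in place of −2.00). With all annotated transcripts, 926 were higher and 619 lower, the matrix median was 1.02 and the ribosomal −0.77. SEPTIN9 (0.81), IDS (0.36) and RPL35A (−0.047) then changed sign. The centre there was −1.33 in place of −2.00, and 14 of 96 recomputed genes with a call lost it. Among those 14, COL1A2, HSPA5, CTSD, CDKN2A, BUB3 and H1-4 lost it through the moved centre alone. With transcripts of 600 nt or longer alone, 115 were lower, the endoplasmic reticulum median was 1.92, and NDUFB3 (−3.71), ATP5F1B (−2.93) and ACTB (10.48) changed sign. That setting had a centre of −2.38. Of alternatives chosen after seeing the data, 20 FPKM in young mitoplasts gave 163 lower, with a centre of −2.46. A mean of 20 FPKM gave 352 higher and a lysosome median of 2.04, with a centre of −1.86. Leaving out loci with assembled transcripts gave 355 at 0. The immediate early median was 0.50 at 5 FPKM and 0.15 for genes at 20 FPKM in young whole cells. The codon difference in medians ranged from 0.65 to 1.08 over its 9 alternatives, against 0.79, and was 0.22 among genes led by under 600 nt. Pseudocounts of 0.1 and 5 FPKM left the 5 list medians and all counts within 1.5 times. The depth is unknown and 1 library a group sets no error on any value.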
